A study of Homo sapiens with 22 samples.

Results

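Interferon-response genes were followed in HEK293T cells that had been transfected with a small interfering RNA (siRNA) and heated. The genes were IFI35, STAT2, ISG15, IFITM1, IFITM2, IFITM3, IFI6, OAS3 and ADAR, and every array probe that the platform annotation pairs with one of these 9 symbols was taken, whatever its values. Of the 48803 probes on the array, 12 carried the symbols of 8 of these genes, and STAT2, which had no named probe, was not analysed here. The question was whether the siRNA or the heat evoked an interferon response.

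HEK293T is a human embryonic kidney cell line that expresses the SV40 large T antigen. One arm received siRNA directed at Satellite III (Sat III) transcripts, the long non-coding repeat RNAs that human cells make under heat stress, and the control arm received a scrambled siRNA. In both arms cells grown at 37 °C were harvested untreated, directly after a heat shock of 42 °C lasting 1 h, or when 6 h of recovery had followed that shock. There were 4 arrays for each treatment of the scrambled arm, and 3 untreated, 3 heat-shocked and 4 recovery arrays for the Sat III arm. All 22 samples were transfected with an siRNA, so cells without transfection are no part of the comparisons, and a response shared by both siRNAs would not appear in a difference between the arms. The labels number the replicates without saying whether they were separate cultures. A p-value therefore sets a difference only against the scatter of these samples, which may be technical scatter.

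Cells that sense foreign nucleic acid, such as long double-stranded RNA, secrete type I interferon. The interferon receptor then acts through the kinases JAK1 and TYK2 to activate a transcription factor that contains STAT2 and IRF9 and binds the interferon-stimulated response element in the promoters of responding genes. The products of these genes block viral entry, degrade or edit RNA, or mark proteins. A short siRNA can also be sensed in some cells, which is why interferon-stimulated genes are often checked after transfection.

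Promoter sequences are shown for 4 members because they differ in the letters of that element and in what their RNA did. Whether the letters bear on the RNA changes was not tested. The letters searched on both strands were GAAA, any 2 bases and GAAA again, in the 250 bases before and 50 bases after each start in RefSeq's GRCh38.p14 annotation. Of 8 members with such a window, 5 held a match (ISG15, IFITM1, IFITM3, IFI6 and OAS3), and IFI35, STAT2 and ADAR held none. Over all 35116 windows the share with a match was 3.57%. The letters of a heat shock element (GAA, TTC and GAA, or TTC, GAA and TTC, each 2 bases apart) occurred in the window of no member and in 0.49% of all windows. The 170 bases before the start are given 5′ to 3′ on the gene's strand, with matches to the response element in capitals. ISG15 (chr1:1013327-1013496, plus strand) has 2 overlapping matches, IFI6 (chr1:27672193-27672362, minus strand) has 3, and IFITM1 (chr11:313870-314039, plus strand) has 1 whole match and the first 6 bases of another that crosses the start. IFI35 (chr17:43006614-43006783, plus strand) has none. Its letters near the start include GAAA, 1 base and GAAA again, a spacing that the search did not count. A window without a match may therefore still hold another form of the element.
ISG15: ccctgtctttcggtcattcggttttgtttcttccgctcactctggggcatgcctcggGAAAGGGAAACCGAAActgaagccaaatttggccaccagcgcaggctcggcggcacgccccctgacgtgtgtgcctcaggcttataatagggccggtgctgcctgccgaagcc
IFI6: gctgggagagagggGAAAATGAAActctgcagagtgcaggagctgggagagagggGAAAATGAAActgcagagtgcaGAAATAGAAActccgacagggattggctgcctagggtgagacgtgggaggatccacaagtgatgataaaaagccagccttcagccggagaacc
IFITM1: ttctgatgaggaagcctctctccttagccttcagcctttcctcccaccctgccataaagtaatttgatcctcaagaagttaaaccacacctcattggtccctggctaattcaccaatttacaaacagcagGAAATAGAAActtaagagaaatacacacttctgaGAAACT
IFI35: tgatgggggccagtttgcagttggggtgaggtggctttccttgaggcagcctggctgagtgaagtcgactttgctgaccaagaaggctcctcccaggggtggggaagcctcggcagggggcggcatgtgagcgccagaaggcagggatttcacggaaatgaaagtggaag

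Levels below are normalised log2 intensities. A probe counted as above background on an array when its detection p-value, the comparison with negative control beads, was under 0.01, and a probe above background on at least 3 arrays was tested. Each array had 13176 to 14863 probes above background, 15324 probes were tested, and the dimmest signal above background lay between 5.21 and 5.62 depending on the array. Comparisons were made with limma in 1 fit of all 6 groups, with Benjamini-Hochberg adjustment over all tested probes and a threshold of 0.05 on the adjusted p. The heat labels of the scanner table went with the heat-shock gene HSPA6, which lay at 4.56 to 4.89 without heat, at 12.49 to 13.74 right after it and at 9.61 to 10.6 in recovery. The authors' normalised table disagreed with the scanner table on the labels of 7 arrays, so each member call is also given for the 15 arrays on which both agree. Arrays of replicates 1 and 2 were brighter (median intensity 56.5 to 64.6) than those of replicates 3 and 4 (48.9 to 54.8). Of the defining markers of the HEK293 lineage, NEFL and NEFM were above background on all 22 arrays, MYT1 on 13, LHX1 on 9 and PAX2 on none.

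Of the 12 probes, 7 probes of 6 genes passed the detection filter. The probes of IFI35, IFITM1 and IFITM2, 1 of 2 IFI6 probes and 2 of 3 ADAR probes were above background on all 22 arrays, and the ISG15 probe on 17. IFITM3, which encodes an endosomal membrane protein that blocks the entry of enveloped viruses, was above background on no array, with detection p-values from 0.025 to 0.507. OAS3 encodes a synthetase that turns double-stranded RNA into the signal for RNase L. Its probe ILMN_1745397 was above background on 1 array, of untreated scrambled cells, and its probe ILMN_2184262 on none. The second IFI6 probe was above background on 2 arrays, both of scrambled recovery, and the third ADAR probe on 2, 1 from each arm in recovery. These 5 probes were not tested, and for IFITM3 and OAS3, which had no tested probe, the RNA is bounded only by the dimmest signal above background.

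**Figure D1:**
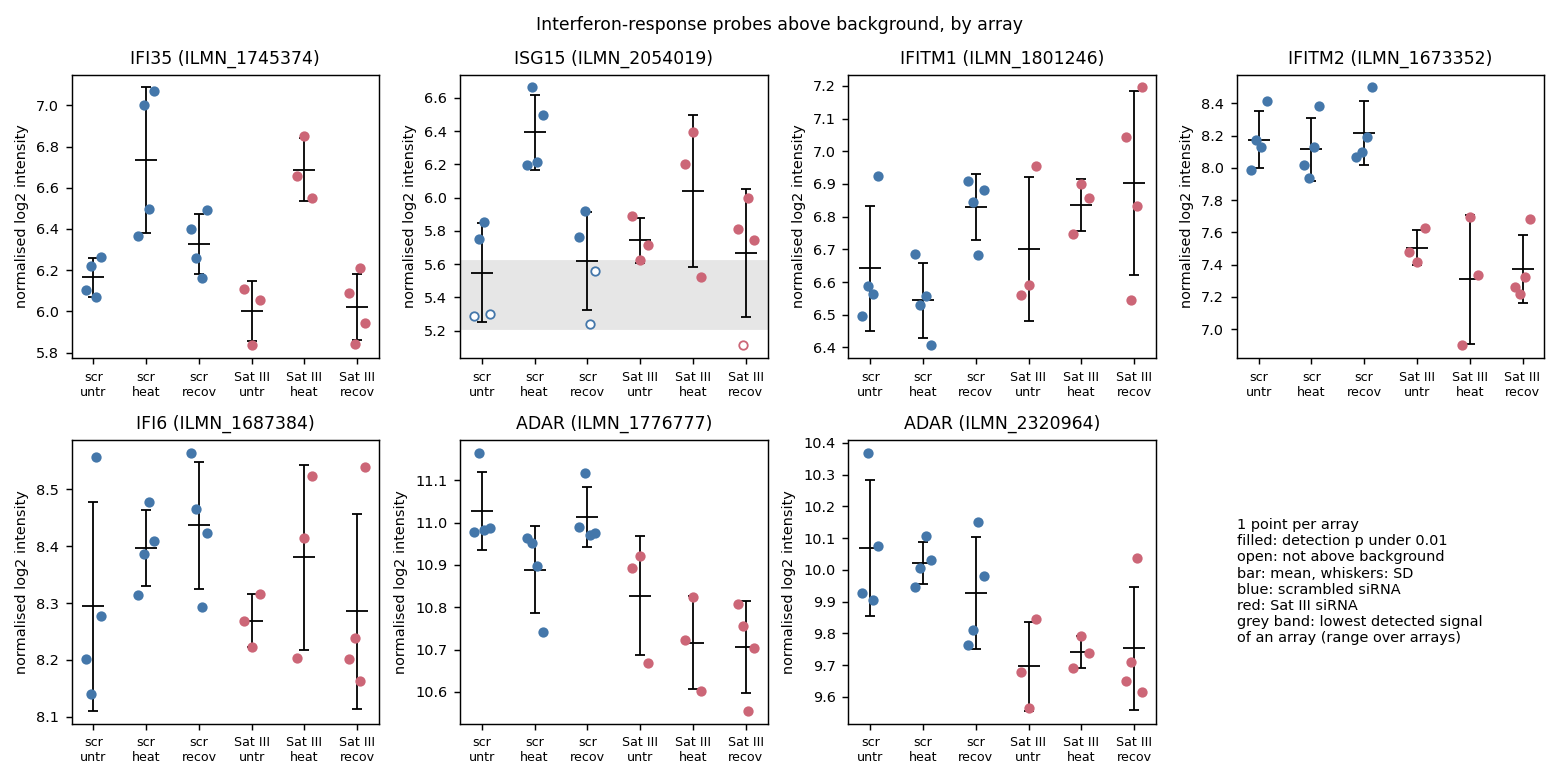
Normalised log2 intensity (vertical axis, scaled separately for each probe) of the 7 tested probes on each of 22 arrays, by siRNA arm and treatment. Points are arrays, bars are means and whiskers are SD; the IFITM2 points of the scrambled arm all lie above those of the Sat III arm, and the ISG15 and IFI35 points of heat-shocked scrambled cells all lie above those of untreated scrambled cells.

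IFITM2 was lower in cells with Sat III siRNA than in cells with scrambled siRNA under all 3 treatments. It encodes a membrane protein that hinders virus entry at late endosomes. In untreated scrambled cells its levels were 7.99, 8.18, 8.13 and 8.41 (mean 8.18 ± 0.18, SD, n = 4), and in untreated Sat III cells they were 7.48, 7.42 and 7.62 (7.51 ± 0.11, SD, n = 3). After heat shock the scrambled arrays gave 8.02, 7.93, 8.13 and 8.38, and the Sat III arrays 6.90, 7.69 and 7.33. In recovery the scrambled arrays gave 8.07, 8.10, 8.19 and 8.50, and the Sat III arrays 7.26, 7.22, 7.32 and 7.68. The arms did not overlap, since the highest of the Sat III arrays, at 7.69, lay below the lowest of the scrambled arrays, at 7.93.

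The difference, Sat III minus scrambled, was -0.67 ± 0.16 on the log2 scale (SE) in untreated cells, 1.59-fold lower, with an adjusted p of 0.0143 in the limma fit. In heat-shocked cells it was -0.81 ± 0.16, 1.75-fold lower (limma adjusted p = 0.00265). In recovery it was -0.85 ± 0.15, 1.80-fold lower (limma adjusted p = 0.000643). On the 15 arrays with agreeing labels the untreated difference was -0.651 and did not pass (limma adjusted p = 0.0579), while those after heat shock (-0.729) and in recovery (-0.882) did (limma adjusted p of 0.0278 and 0.00863). The untreated difference also missed the threshold without Sat III untreated replicate 1 (-0.656, limma adjusted p = 0.0619) or without replicate 2 (-0.626, limma adjusted p = 0.0696). Within replicates 1 and 2 the 3 differences were -0.635, -0.678 and -0.845, and within replicates 3 and 4 they were -0.647, -0.922 and -0.846, with none of these 6 passing (limma adjusted p from 0.0639 to 0.365). The Sat III arm has no replicate 3 in untreated or heat-shocked cells, so it is 1 array there in the second set, taken to vary like the other groups.

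The IFITM2 probe's sequence was not used here. IFITM1, IFITM2 and IFITM3 are neighbouring genes with closely similar sequences, so the signal may include RNA of more than 1 of them. IFITM1, which acts mostly at the plasma membrane, did not go the same way: its difference between the arms was 0.06 ± 0.13 in untreated cells, 0.29 ± 0.13 after heat shock and 0.08 ± 0.12 in recovery. None of these passed (limma adjusted p of 0.863, 0.253 and 0.801). IFITM1 levels ran from 6.41 to 7.20 over the 22 arrays. After heat shock its arms did not overlap, with 6.69, 6.53, 6.56 and 6.41 in scrambled cells and 6.75, 6.90 and 6.86 in Sat III cells.

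ADAR, which edits adenosine to inosine in double-stranded RNA and has an interferon-inducible long isoform, was lower in the Sat III arm in recovery by 1 of its 2 tested probes. Probe ILMN_1776777 read 10.99, 11.12, 10.97 and 10.98 on the scrambled recovery arrays and 10.81, 10.75, 10.56 and 10.70 on the Sat III recovery arrays, which did not overlap. The difference was -0.31 ± 0.08, 1.24-fold lower (limma adjusted p = 0.0197). Its differences in untreated cells (-0.20 ± 0.09) and after heat shock (-0.17 ± 0.09) did not pass (limma adjusted p of 0.225 and 0.324).

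Both ADAR probes had a lower mean in the Sat III arm under each treatment, and the difference between the probes was not tested. ILMN_1776777 did not overlap between the arms in untreated cells either, and no difference of ILMN_2320964 passed. Its recovery arrays overlapped, at 9.76, 9.81, 10.15 and 9.98 in scrambled cells and 9.65, 9.71, 10.04 and 9.62 in Sat III cells, with a difference of -0.17 ± 0.11 (limma adjusted p = 0.399). Its arms did not overlap in untreated cells, where the difference was -0.37 ± 0.12 (limma adjusted p = 0.0773), nor after heat shock, where it was -0.28 ± 0.12 (limma adjusted p = 0.207). The recovery call of ILMN_1776777 was lost on the 15 arrays (-0.245, limma adjusted p = 0.181), without scrambled recovery replicate 2 (-0.273, limma adjusted p = 0.066) and without Sat III recovery replicate 3 (-0.258, limma adjusted p = 0.0674). Within replicates 1 and 2 it was -0.273 and within replicates 3 and 4 it was -0.343, and neither passed (limma adjusted p of 0.276 and 0.229).

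Between the arms, then, 1 of 7 member probes was lower in untreated cells, where 2.94% of all tested probes were called lower and 4.88% were called in either direction. After heat shock it was 1 of 7, against 3.67% lower and 5.51% in either direction. In recovery it was 2 of 7, against 5.46% lower and 8.61% in either direction. No member probe was higher with Sat III siRNA in any treatment, where 1.94%, 1.85% and 3.15% of all tested probes were called higher. The median difference of the 7 probes was -0.16, -0.17 and -0.17, against 0.01 for all tested probes in each treatment. Groups did not overlap for 3, 3 and 2 of the 7 probes, where 16.7%, 17.5% and 13.3% of all tested probes did not overlap.

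Some of the genes that mark the HEK293 lineage also differed between the arms. The summed level of the 7 probes of the 5 marker genes was 10.05 to 10.3 in scrambled and 10.36 to 10.61 in Sat III untreated cells, 10.02 to 10.19 and 10.33 to 10.43 after heat shock, and 9.82 to 9.947 and 10.13 to 10.23 in recovery. NEFM, a neurofilament subunit, was higher in the Sat III arm in all 3 treatments, by 0.30, 0.32 and 0.36 (limma adjusted p of 0.0457, 0.0264 and 0.00556), and NEFL by 0.62 in untreated cells (limma adjusted p = 0.0205). LHX1 and MYT1, the other 2 tested markers, passed in no treatment. The median difference of the 4 was 0.101, 0.13 and 0.195, which in untreated cells lay below both NEFM and NEFL. NEFM, at a mean of 9.656, was the brightest of the 4 and so weighs most in the sum. The part of these markers in the IFITM2 and ADAR results was not tested. These are bulk samples, in which fewer cells of a type and less RNA per cell cannot be told apart.

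**Figure D2:**
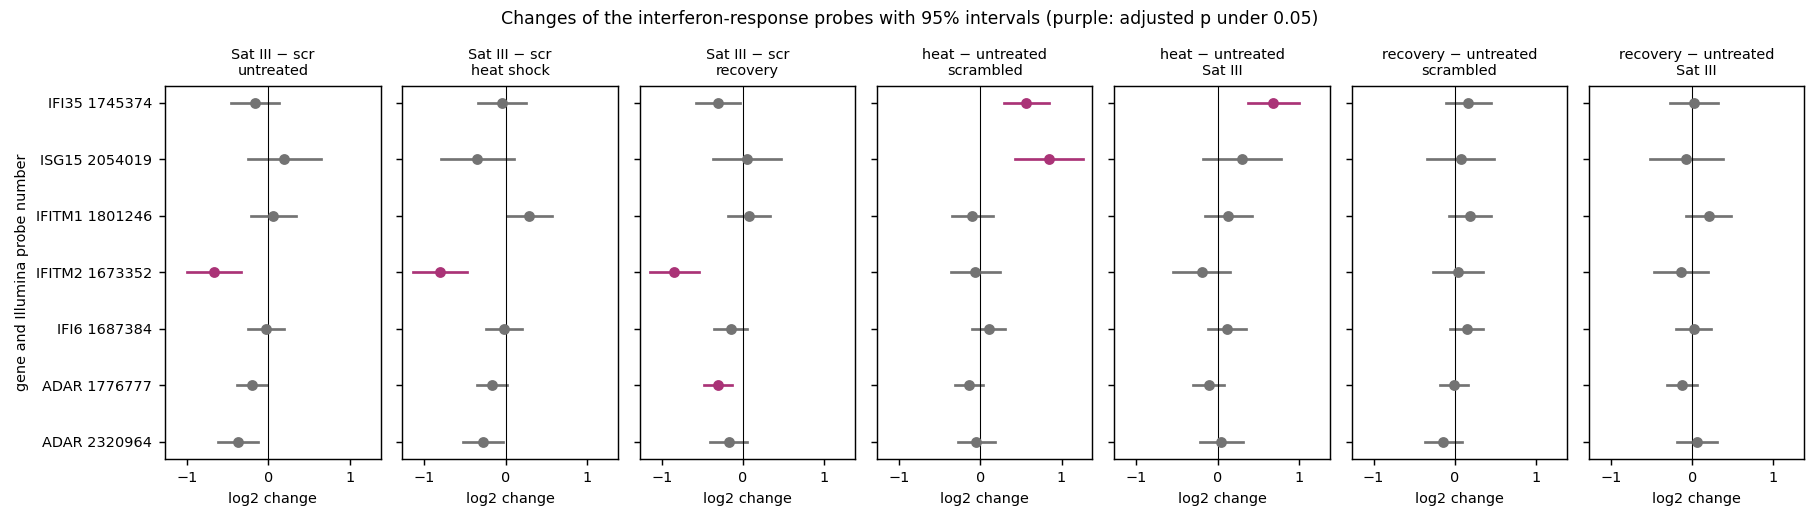
Log2 change (horizontal axis) of each tested member probe in 7 comparisons, with 95% confidence intervals from limma; purple points passed at an adjusted p under 0.05. IFITM2 lies to the left of 0 in the 3 comparisons between the arms, and IFI35 lies to the right of 0 after heat shock in both arms.

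After heat shock IFI35 was higher in both arms and ISG15 in the scrambled arm. IFI35 is a cytoplasmic protein that binds the related protein NMI, and ISG15 is a ubiquitin-like protein that is joined to other proteins after interferon treatment. IFI35 read 6.10, 6.22, 6.07 and 6.26 in untreated scrambled cells and 6.37, 7.0, 6.49 and 7.07 after heat shock, so that no heat-shocked array fell as low as an untreated one. The rise was 0.57 ± 0.13, 1.48-fold (limma adjusted p = 0.0067). In the Sat III arm it read 6.11, 5.83 and 6.06 in untreated and 6.66, 6.85 and 6.55 in heat-shocked cells, again without overlap, a rise of 0.69 ± 0.15 or 1.61-fold (limma adjusted p = 0.00626).

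ISG15 read 5.29, 5.75, 5.85 and 5.30 in untreated scrambled cells, where 2 of 4 arrays were above background. After heat shock it read 6.20, 6.66, 6.21 and 6.49, above background on all 4 arrays and above every untreated one. The rise was 0.84 ± 0.20, 1.79-fold (limma adjusted p = 0.0075). In the Sat III arm ISG15 read 5.89, 5.62 and 5.72 in untreated cells and 6.20, 6.40 and 5.52 after heat shock. The heat-shocked Sat III replicate 4, at 5.52, lay below all 3 untreated arrays, and the difference of 0.30 ± 0.23 did not pass (limma adjusted p = 0.572). The heat changes of the arms were not shown to differ: for ISG15 the Sat III minus scrambled difference in change was -0.55 ± 0.31, with a 95% interval from -1.18 to 0.09 (limma adjusted p = 0.999), and for IFI35 it was 0.12 ± 0.20 (limma adjusted p = 0.999).

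After heat shock, 2 of 7 member probes were higher in the scrambled arm, where 5.29% of all tested probes were called higher and 10.1% in either direction. In the Sat III arm it was 1 of 7, against 3.71% higher and 6.74% in either direction. No member probe was lower after heat shock, where 4.85% of all tested probes in the scrambled and 3.03% in the Sat III arm were called lower. The median change of the 7 probes was -0.05 in the scrambled arm and 0.11 in the Sat III arm, against -0.02 for all tested probes in both. Groups did not overlap for 3 of 7 probes in the scrambled and 1 of 7 in the Sat III arm, where 14.6% and 24.3% of all tested probes did not. In the scrambled arm these were IFI35, ISG15 and ADAR ILMN_1776777. The ADAR probe was lower after heat shock, with a change of -0.14 that did not pass (limma adjusted p = 0.354). The heat and recovery comparisons of an arm share its untreated arrays.

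The scrambled heat calls were lost in some fits of fewer arrays. When each array of the compared groups was left out in turn, these 2 calls and the Sat III IFI35 call passed each time. The highest limma adjusted p was 0.0343 for ISG15, and 0.0352 and 0.0452 for IFI35 in the scrambled and Sat III arms. On the 15 arrays with agreeing labels the scrambled heat difference was 0.727 for ISG15 and 0.489 for IFI35, and neither passed (limma adjusted p of 0.0559 and 0.06). IFI35 in the Sat III arm passed there, at 0.782 (limma adjusted p = 0.0213). Within replicates 1 and 2 the differences were 0.912 for ISG15 and 0.522 for IFI35, and within replicates 3 and 4 they were 0.776 and 0.615, with limma adjusted p from 0.0557 to 0.234. For IFI35 in the Sat III arm the difference within replicates 1 and 2 was 0.782 and passed (limma adjusted p = 0.0457), and replicate 4 alone, 1 array against 1, differed by 0.495. Scaling each array to its median in place of quantile normalisation ended the 3 heat calls and the ADAR call and kept the 3 IFITM2 calls. Under that scaling the differences were 0.758 for ISG15, 0.471 and 0.625 for IFI35 in the scrambled and Sat III arms, and -0.313 for ADAR, with limma adjusted p from 0.0602 to 0.924. Fitting only the 2 groups compared kept the ISG15 call (limma adjusted p = 0.00788) and ended the ADAR call (limma adjusted p = 0.068) and the scrambled IFI35 call (limma adjusted p = 0.0502).

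Of the 2 tested leukocyte markers, 1 passed after heat shock in the Sat III arm and 0 in the scrambled arm. CD14, at a mean of 5.648, was above background on 15 arrays and was higher after heat shock in the Sat III arm by 0.96 (limma adjusted p = 0.00291), with a difference of 0.46 in the scrambled arm (limma adjusted p = 0.0949). CD68, the other tested one, was above background on all 22 arrays and passed after heat shock in neither arm. The median change of the 2 was 0.35 in scrambled and 0.55 in Sat III cells. The summed level of the 14 probes of the 7 leukocyte markers with a named probe went from 8.761 to 8.903 in untreated to 8.933 to 8.971 in heat-shocked scrambled cells, and from 8.793 to 8.868 to 8.903 to 9.043 in Sat III cells. Of those 7 genes, 5 were at background on every array: PTPRC, LYZ, CD3E, ITGAM and NKG7. The part of CD14-expressing cells in the heat result was not tested.

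In recovery no member probe differed from untreated cells in either arm by limma. None had an unadjusted limma p under 0.05, where 23.3% of all tested probes did in the scrambled and 24.3% in the Sat III arm. Over all tested probes 9.01% were called in the scrambled arm (4.97% higher and 4.03% lower) and 9.61% in the Sat III arm (4.91% higher and 4.7% lower). ISG15 was at 5.76, 5.92, 5.24 and 5.56 in scrambled recovery, with a difference from untreated cells of 0.07 ± 0.20, and IFI35 was at 6.40, 6.26, 6.16 and 6.49, a difference of 0.16 ± 0.13. In the Sat III arm the ISG15 difference was -0.08 ± 0.22 and the IFI35 difference 0.02 ± 0.14. Groups did not overlap for 0 of 7 probes in each arm, against 13.4% and 23.2% of all tested probes. The difference between the arms in the heat or recovery change passed for 0 of 7 member probes and for 0% of all tested probes in limma, where 551 and 573 probes, and no member probe, had an unadjusted p under 0.05.

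IFI6, whose product sits in mitochondria and the endoplasmic reticulum and restrains cell death, passed in no comparison. Its probe ILMN_1687384 stayed between 8.14 and 8.56 on all 22 arrays, and the 95% intervals of its 7 changes between groups lay within -0.36 to 0.35.

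The order of the 6 groups differed between members. By mean level IFITM2 had the 3 scrambled groups (8.22, 8.18 and 8.11) above the 3 Sat III groups (7.51, 7.37 and 7.31), and neighbours within each arm overlapped. IFI35 and ISG15 had the 2 heat-shocked groups on top, at 6.73 and 6.69 for IFI35 and at 6.39 and 6.04 for ISG15, and the 4 other groups lay from 6.00 to 6.33 and from 5.55 to 5.74. Over the 22 arrays the levels of IFI35 and ISG15 had a Pearson correlation of 0.726, IFITM2 and the 2 ADAR probes 0.645 and 0.664, IFITM2 and ISG15 0.01, and the 2 ADAR probes with each other 0.396. These are descriptions over arrays that share groups and normalisation. The tested genes with the closest patterns were MOSPD2 (0.943) and MRPS24 (0.935) for IFITM2, DDIT3 (0.877) and CCN1 (0.86) for IFI35, and PWWP2A (0.817) and C2orf42 (0.811) for ISG15. They were BCAS4 (0.744) and ANKRD39 (0.727) for IFITM1, PIEZO1-AS1 (0.686) and CEBPB (0.667) for IFI6, and BRCA1 and SLC30A9 (0.848 each) for ADAR.

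The rest of the pathway was read from 132 other genes in 5 lists, of which 128 had a named probe and 58 were tested. Most of the classic effectors were at background. IFIT2, IFIT3, MX1, OAS1, OAS2, OASL, RSAD2, IFI44, IFI44L and CXCL10 were above background on no array, in either arm and under any treatment. The same held for the sensors RIGI, IFIH1, CGAS and TLR3, for the transcription factor IRF7 and for IFNB1, the gene of interferon beta. EIF2AK2, the kinase PKR that halts translation on double-stranded RNA, STING1 and IRF9 were above background on all 22 arrays. Of 51 effectors 20 were tested, of 18 receptors, kinases and transcription factors 14, of 25 nucleic acid sensors and adaptors 12, of 17 antigen presentation genes 11, and of 21 interferon ligands 1, IFNA8. A second IFNA8 probe was above background on no array.

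**Figure D3:**
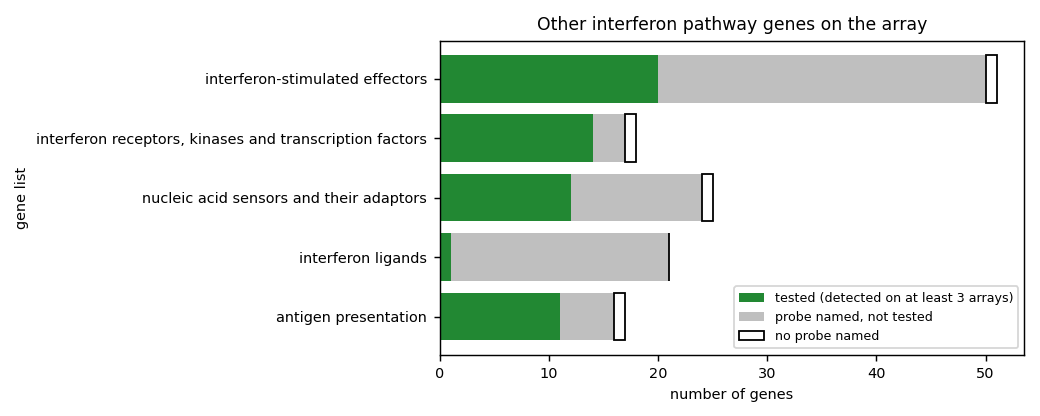
Number of genes (horizontal axis) in each of 5 interferon pathway lists that were tested, that had a named probe but were not tested, or that had no named probe. The 20 of 51 tested effectors and 1 of 21 tested ligands contrast with 14 of 18 tested receptors, kinases and transcription factors.

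Between the arms, more of the pathway genes that passed were lower than higher with Sat III siRNA, as were more of all tested probes. By the brightest probe of each gene, 4 of 58 were lower and 1 higher in untreated cells, 4 lower and none higher after heat shock, and 7 lower and 1 higher in recovery. The shares lower were 6.9%, 6.9% and 12.1%, against 2.94%, 3.67% and 5.46% of all tested probes. Here and in the heat and recovery counts below, the pathway share counts genes by their brightest probe and the other share counts probes. With the brightest probe of each of 10147 tested genes fitted alone, 618, 713 and 1067 passed in either direction. Among the effectors SP110, a nuclear body protein, was lower by 0.40, 0.50 and 0.52 in the 3 treatments on the log2 scale (limma adjusted p of 0.0116, 0.00139 and 0.000356). A second SP110 probe differed by -0.26 in untreated and heat-shocked cells, which did not pass, and by -0.52 in recovery, which did (limma adjusted p = 0.0291). IFIT1, which binds foreign RNA caps, was lower in untreated cells by 0.57 and in recovery by 0.40 (limma adjusted p of 0.0052 and 0.0251) on 1 of its 2 probes, the other being above background on no array. PARP9 was lower after heat shock and in recovery by 0.39 and 0.38, HERC6 after heat shock by 0.43 and EPSTI1 in recovery by 0.37.

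Among receptors IL10RB, the shared chain of the interleukin 10 and interferon lambda receptors, was lower in the Sat III arm by 0.54, 0.42 and 0.73 (limma adjusted p of 0.00429, 0.0258 and 4.93e-05), and its second probe by 0.60, 0.48 and 0.66. In recovery the scrambled arrays of IL10RB lay between 9.78 and 10.05 and the Sat III arrays between 9.08 and 9.38. MAVS, the adaptor of the RNA sensors RIG-I and MDA5, was the only tested sensor or adaptor to pass between the arms, higher in recovery by 0.62 (limma adjusted p = 0.0131). That probe was above background on 2 of 4 scrambled and 4 of 4 Sat III recovery arrays. The other MAVS probe was not tested, and its recovery means were 5.138 in scrambled and 4.849 in Sat III cells, above background on 2 arrays and none. In antigen presentation TAPBP was lower by 0.48 and the immunoproteasome subunit PSMB10 higher by 0.33 in untreated cells, and the peptide transporter subunit TAP1 was lower by 0.29 in recovery (limma adjusted p of 0.016, 0.0448 and 0.0334).

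After heat shock IRF9 and IFNAR1 rose in both arms. In scrambled cells 4 of 58 pathway genes rose (6.9%) and 2 fell (3.45%), against 5.29% and 4.85% of all tested probes. IRF9, the DNA-binding part of the interferon-activated factor, rose by 0.57 ± 0.10, from 6.53 to 6.67 on untreated arrays to 6.87 to 7.39 on heat-shocked ones (limma adjusted p = 7e-04). IFNAR1, a chain of the type I interferon receptor, rose by 0.40 and the kinase gene JAK2 by 0.42 (limma adjusted p of 0.0037 and 0.0469). RNF213 rose by 0.31 on 1 probe, with -0.07 on its other probe. IFIT1 fell by 0.41 and IFNA8 fell by 0.28 (limma adjusted p of 0.0171 and 0.00795). In Sat III cells 3 of 58 rose (5.17%) and 1 fell (1.72%), against 3.71% and 3.03% of all tested probes. IRF9 rose by 0.48, IFNAR1 by 0.36 and the transcription factor gene IRF1 by 0.42, while the signalling adaptor TRAF6 fell by 0.52 (limma adjusted p of 0.0155, 0.0291, 0.0287 and 0.0161). A dimmer TRAF6 probe fell in both arms, by 0.45 in scrambled and 0.55 in Sat III cells (limma adjusted p of 0.0234 and 0.0219), while the brighter one differed by -0.16 in scrambled cells (limma adjusted p = 0.474).

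In recovery IRF9 was also higher than in untreated cells in both arms, by 0.45 and 0.37 (limma adjusted p of 0.00915 and 0.0405). STING1, the adaptor of the DNA sensor cGAS, was higher by 0.42 in scrambled and 0.52 in Sat III cells, and the kinase gene TBK1 by 0.26 and 0.32 (limma adjusted p from 0.0147 to 0.0474). IL10RB was higher by 0.55 and 0.36. In scrambled recovery cells 4 of 58 genes were higher (6.9%) and 3 lower (5.17%), against 4.97% and 4.03% of all tested probes, the lower ones being PTPN11, TAP2 and IFNA8. In Sat III recovery cells 5 of 58 were higher (8.62%) and 1 lower (1.72%), against 4.91% and 4.7%. IFIT1 was among the higher ones by 0.39 (limma adjusted p = 0.0384), and UBE2L6 was lower by 0.32. A second TAP2 probe differed by 0.00. In both arm differences of change 0 of 58 passed in limma.

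Some markers of other cells and of the line moved in recovery too. EPCAM, an epithelial adhesion molecule, was higher by 0.59 in scrambled and 0.62 in Sat III cells (limma adjusted p of 0.000314 and 0.00041), while KRT5 and KRT14 were at background on every array. CDH1, the other tested keratinocyte and cervical carcinoma marker, was above background on all 22 arrays and passed in neither arm. The median change of the 2 was 0.295 in scrambled and 0.416 in Sat III cells. The summed level of the 5 probes of the keratinocyte and cervical carcinoma markers was 7.885 to 8.117 in untreated and 8.217 to 8.315 in recovery scrambled cells, and 7.871 to 8.038 and 8.249 to 8.448 in Sat III cells. NEFM was lower in recovery by 0.36 and 0.30 (limma adjusted p of 0.00712 and 0.0323), and the summed HEK293 levels given above were lower in recovery in both arms, without overlap. Of the 4 tested markers of the line, 1 passed as lower in scrambled and 2 in Sat III cells, and 0 as higher. The part of these markers in the recovery results was not tested.

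**Figure D4:**
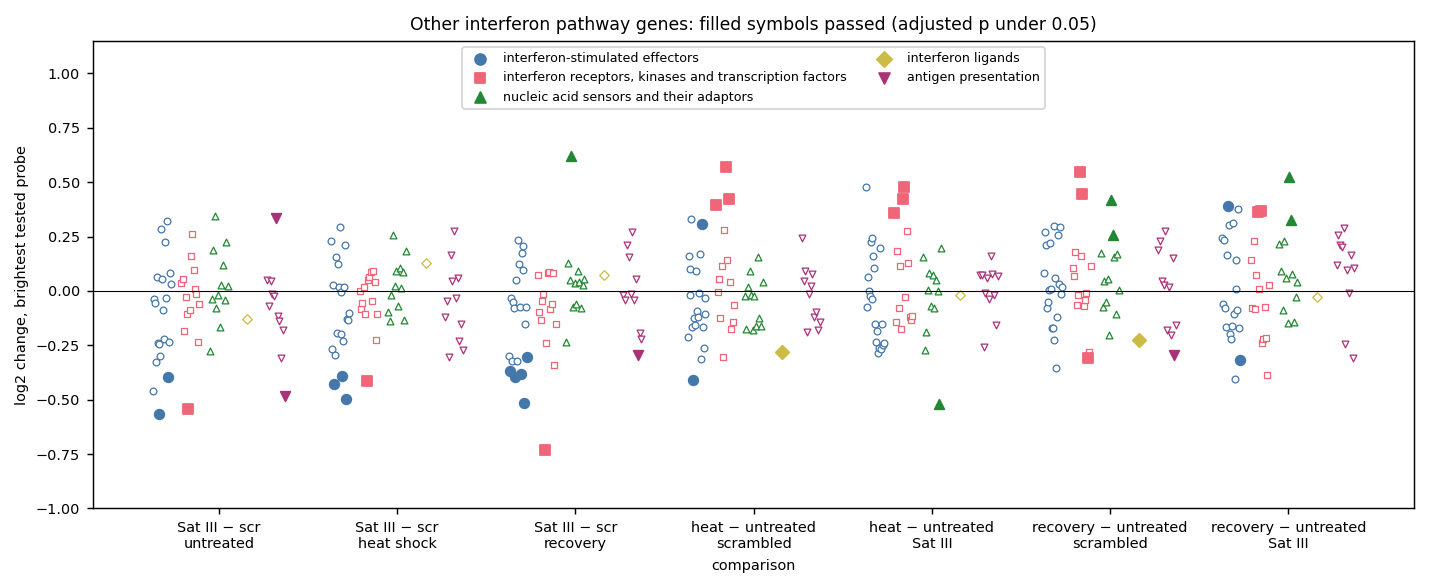
Log2 change (vertical axis) of the brightest tested probe of 58 pathway genes in 7 comparisons (horizontal axis), with the gene list given by the symbol. Filled symbols passed at an adjusted p under 0.05 and open symbols did not; all filled symbols lie within 1 log2 unit of 0, and the largest is IL10RB at -0.73.

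Most of these pathway calls were lost with fewer arrays or with another scaling. Of the 39 pathway calls named by the rule, 14 passed on the 15 arrays with agreeing labels, 2 within replicates 1 and 2, and none within replicates 3 and 4 or with median scaling. When each array was left out in turn, 29 were lost at least once. Those that passed each time were IL10RB between the arms in untreated and recovery cells and in scrambled recovery, SP110 between the arms after heat shock and in recovery, IFIT1 between the arms in untreated cells, IRF9 in scrambled heat shock and recovery, and IFNAR1 and IFNA8 in scrambled heat shock.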

How the data were processed

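Total RNA of the 22 samples was amplified from 300 ng and biotin-labelled for Illumina bead arrays, per the labels' protocols. The deposited scanner table gives a linear intensity for each probe, not normalised between arrays, with a detection p-value beside it per the file headers. A table of normalised intensity values by the authors was used as an alternative. The sources used here do not give the scanner software.

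The scanner intensities were background-corrected by normexp from the detection p-values (offset 16), quantile-normalised and log2-transformed with limma 3.58.1 in R 4.3.3. Probes with a detection p under 0.01 on at least 3 arrays (15324 of 48803) were fitted at probe level in 1 model of 6 groups, with eBayes and two-sided Benjamini-Hochberg adjusted p-values. The script was tested on simulated data. The number of arrays limits the precision. Probes were named from the platform annotation, with symbols updated through RefSeq: 28098 had 1 symbol, 13 several and 20692 none, and only the first were used for names. Promoter sequences are RefSeq's (GRCh38.p14).

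Of the authors' columns, 15 ranked the probes like their namesake in the scanner table, 6 matched another scanner array and 1 matched none. Groups followed the scanner table. The members, the pathway and marker lists and the tests were chosen with earlier results of these data known. From each pathway list and comparison, up to 4 genes that passed with the largest change of their brightest tested probe were named, together with defining genes at background. Replicate numbers were not used as pairs. Alternatives covered scaling, background, filter, gene level, blocks, array subsets and the authors' table.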

Additional observations from a re-analysis of the deposited data

Results flagged for a closer look

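ADAR probe ILMN_1776777 had 1 array apart from the rest in 2 groups. Scrambled untreated replicate 2 read 11.17, with the next array at 10.99, a gap of 0.942 of the group's range. Scrambled recovery replicate 2 read 11.12, with the next array at 10.99, a gap of 0.869 of the range. Of 28 groups of 4 arrays examined over the 7 tested member probes, 2 held such an array, and chance alone gives about 1 in 20.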

How the results depend on the processing

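Member calls depended on the scaling and on the number of arrays. With median scaling 1 probe was called between the arms in recovery and 0 after heat shock in either arm, and the median change of all probes was -0.11 after scrambled heat shock. Fitting only the groups compared left 1 in recovery between the arms and 1 in scrambled heat shock. The 15 arrays with agreeing labels left 0 in untreated cells, 1 in recovery and 0 in scrambled heat shock. Without background correction 2 passed in untreated cells. Replicates 1 and 2 alone gave 0 in the 3 comparisons between the arms and in scrambled heat shock, and replicates 3 and 4 alone gave 0 in all 5 comparisons with a member call, 3 of which held a Sat III group of 1 array, assumed to vary like the other groups. The authors' table as labelled gave 0 between the arms in untreated and heat-shocked cells, 1 in recovery, and 0 for heat in both arms. There IFIT1 and IL10RB in Sat III recovery against untreated turned to -0.112 and -0.264. Of its columns 6 matched a scanner array of another label and 1 matched none. Its groups therefore mix arrays that the scanner table keeps apart. Leaving out 1 array gave 0 to 1 in untreated cells and 1 to 2 in recovery between the arms. Same-numbered arrays correlated with a median of 0.161, against -0.035 for other pairs, and over 0.1 in 33 of 51 pairs (-0.204 to 0.308); as not every pair did, the numbers were not taken as pairs. A replicate block changed no member count (1, 1, 2, 2 and 1), and the brightest probe per gene, both other filters and the block for replicate sets changed none either. The cause was not tested, beyond the fewer arrays of the subsets.

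Counts over all probes moved as well. Median scaling called 51, 77 and 152 between the arms (748, 845 and 1319 by quantile), 356 and 229 for heat (1553 and 1033) and 50 and 61 for recovery (1380 and 1473), scrambled first. Fitting only the groups compared gave 276 and 800 between the arms in untreated and recovery cells and 543 for scrambled recovery. The 15 arrays gave 347, 452 and 594 between the arms and 639 and 311 for recovery. Replicates 1 and 2 alone gave 133 to 693, replicates 3 and 4 alone 0 to 272, and the authors' values gave 0 to 178. With the replicate block 1 probe passed for the arm difference in heat change. Outside single-array omissions, 964 probe-level results kept their side of the threshold, 248 missed it and 1 newly passed. Another 2 reversed direction with a pass in at least 1 of the fits. Changes of direction that passed in neither fit count among the 964, as do all other results that passed in neither. The 964 are therefore not a count of calls that were kept. Of the 7 member calls, 3 were kept with median scaling, 3 on the 15 arrays and 5 when only the groups compared were fitted. All 7 were kept with the replicate block. Of the 39 pathway calls, 29 were lost when some 1 array was left out. Signal limits ISG15, which was at background on 5 arrays.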
